A study of Mus musculus with 5 samples.

Results

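Rab proteins are the largest branch of the Ras-like small GTPases and mark the surfaces of intracellular membranes. Each switches between a GTP-bound form, which recruits effectors that move, tether or fuse vesicles, and a GDP-bound form, which a GDP dissociation inhibitor carries through the cytosol. Exchange factors load GTP, GTPase-activating proteins speed its hydrolysis, and escort proteins present new Rabs for the prenylation that anchors them in membranes. The mRNAs of this family were followed in mouse NIH/3T3 fibroblasts, an established embryonic cell line, as RNA recovered with the RNA-binding protein AUF1 p42. Members were taken by gene symbol alone, as Rab followed by a number and at most 1 letter, so Rab-binding and Rab-like genes stayed out. The symbol rule gave 59 genes, represented by 132 probe sets, of 18195 genes with a probe set of their own and 45101 probe sets on the array.

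The question of the design was which mRNAs come down with AUF1, an AU-rich element binding protein. All cells carried stably integrated retroviral vectors for the mifepristone-dependent GeneSwitch regulator and for AUF1 p42 with an amino-terminal myc tag. Stable integrants had been selected while mifepristone was present. The RNP-IPs, which are precipitates of RNA-protein complexes on anti-c-myc agarose beads, comprised 2 arrays labelled induced (1 nM mifepristone for 24 h) and 2 arrays labelled uninduced. A single array held total RNA, and whether those cells had been induced is not settled by the sources used here.

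Hnrnpd, the gene of AUF1, was lower under the induced label than under the uninduced one. Whether its probe sets read the introduced AUF1 p42, the cells' own Hnrnpd mRNA or both was not tested. Its log2 signal stood at 6.72 and 7.39 under the induced label, at 11.35 and 11.85 under the uninduced label and at 10.60 for total RNA. Groups are therefore called by their labels throughout, and every direction given here rests on them. With the labels of the RNP-IPs exchanged, each sign between the RNP-IPs would turn. The median log2 signal of the 5 arrays ranged from 3.77 to 3.83. The Gapdh 5′ control was low on the second array labelled induced (4.24) and the first labelled uninduced (3.65), against 6.93 to 8.18 on the other 3 arrays. The Gapdh 3′ and middle controls were lower on the same 2 arrays too. They read 9.71 and 7.21 on the second labelled induced, and 9.70 and 5.59 on the first labelled uninduced. On the other 3 arrays they read 11.90 to 12.32 and 10.36 to 10.64. The calls of the first comparison are also given without these 2 arrays, which leaves 1 array labelled induced. All 10 fibroblast markers were at log2 6 or more on every array, with summed log2 signals of 110.1 and 111.1 in RNP-IPs labelled induced, 112.2 and 113.8 in RNP-IPs labelled uninduced and 115.6 in total RNA. Of 14 markers of epithelial, blood, endothelial and neural cells, 12 were under log2 5 on every array. The summed signals of these 14 were 55.1 and 54.7 in RNP-IPs labelled induced, 54.7 and 52.7 in RNP-IPs labelled uninduced and 53.2 in total RNA. Of these 14, Epcam, an epithelial marker, read 6.66 to 6.99 and Cd3e, a blood marker, 4.68 to 5.16. Pdgfrb, of the fibroblast list, was called lower in the first comparison, at a log2 fold of -1.59. The part of either list in the results was not tested.

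Signals are log2 values on which probe sets of different genes cannot be ranked against each other, since each binds with its own strength. Signals are also relative to the rest of the RNA on an array, so they do not show a change in the total amount of RNA on the beads. The study reports a lower RNA concentration for RNP-IPs of its control cells, and the same mass of RNA was labelled per sample. Folds given here are therefore changes in the share of the RNA, not in the amount recovered. In bulk RNA, fewer cells with a transcript and less transcript per cell cannot be told apart either. The probe set with the highest mean over the 5 arrays stood for its gene. By that choice 33 of the 59 Rab genes had a mean of at least log2 6, and 15 stayed under log2 5, near background, on every array. These dim genes were Rab3b, Rab3c, Rab3d, Rab26, Rab27a and Rab37 of the secretory Rabs, and Rab7b, Rab9b, Rab17, Rab19, Rab20, Rab33a, Rab39, Rab42 and Rab44. Rab3b, a Rab of regulated secretion, read 4.11 on all 5 arrays. Of all 18195 genes, 6401 had a mean of at least log2 6 and 9100 stayed under log2 5 on every array. Shares of Rab genes set beside shares of all genes thus compare sets of unlike brightness, which was not adjusted for.

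**Figure D1:**
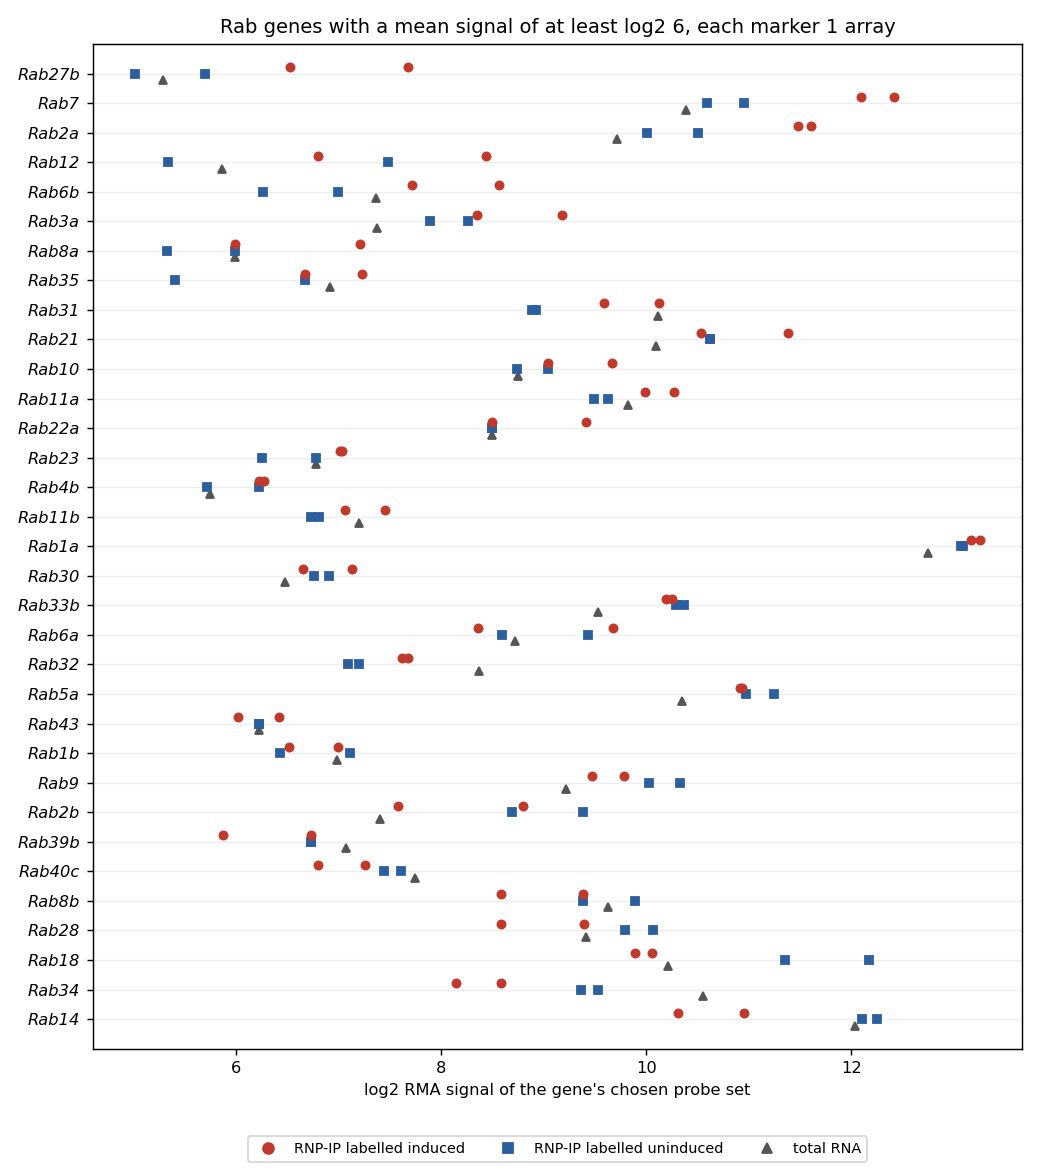
Log2 signal (horizontal axis) of the 33 Rab genes with a mean of at least log2 6, ordered from the highest to the lowest log2 fold of RNP-IPs labelled induced (red circles) over RNP-IPs labelled uninduced (blue squares) and total RNA (grey triangles), each marker 1 array. Rab27b, Rab7 and Rab2a lie to the right in both arrays labelled induced, and Rab14, Rab34 and Rab18 lie to the left.

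Set against the RNP-IPs labelled uninduced and total RNA together, the RNP-IPs labelled induced had higher relative signals of Rab7 and Rab27b mRNA, and no Rab gene was called lower. A gene was called where its fold reached 3 and limma's p, adjusted over all probe sets, lay under 0.5, which is the lenient threshold of the study's methods. The 2 calls among 59 Rab genes (3.39%) stood beside 1.32% of all genes called higher, and the absence of lower calls beside 2.36% of all genes called lower. At an unadjusted limma p under 0.05 there were 8 Rab genes (13.6%), 5 of them higher and 3 lower, against 13.4% of all genes. No probe set on the array reached a limma adjusted p under 0.05, while 4836 had an unadjusted p under 0.05. The median log2 fold over the 59 Rab genes was 0.07, against 0.002 over all genes, with 40 Rab genes above 0 and 19 below.

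Both arrays labelled induced lay above all 3 others for 11 of the 59 Rab genes (18.6%), where 12.0% of all genes did so. These were Rab1a, Rab2a, Rab3a, Rab5c, Rab6b, Rab7, Rab11a, Rab19, Rab23, Rab27b and Rab40b. Both lay below for 6 (10.2%), namely Rab8b, Rab14, Rab18, Rab28, Rab34 and Rab40c, where 13.4% of all genes did so.

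**Figure D2:**
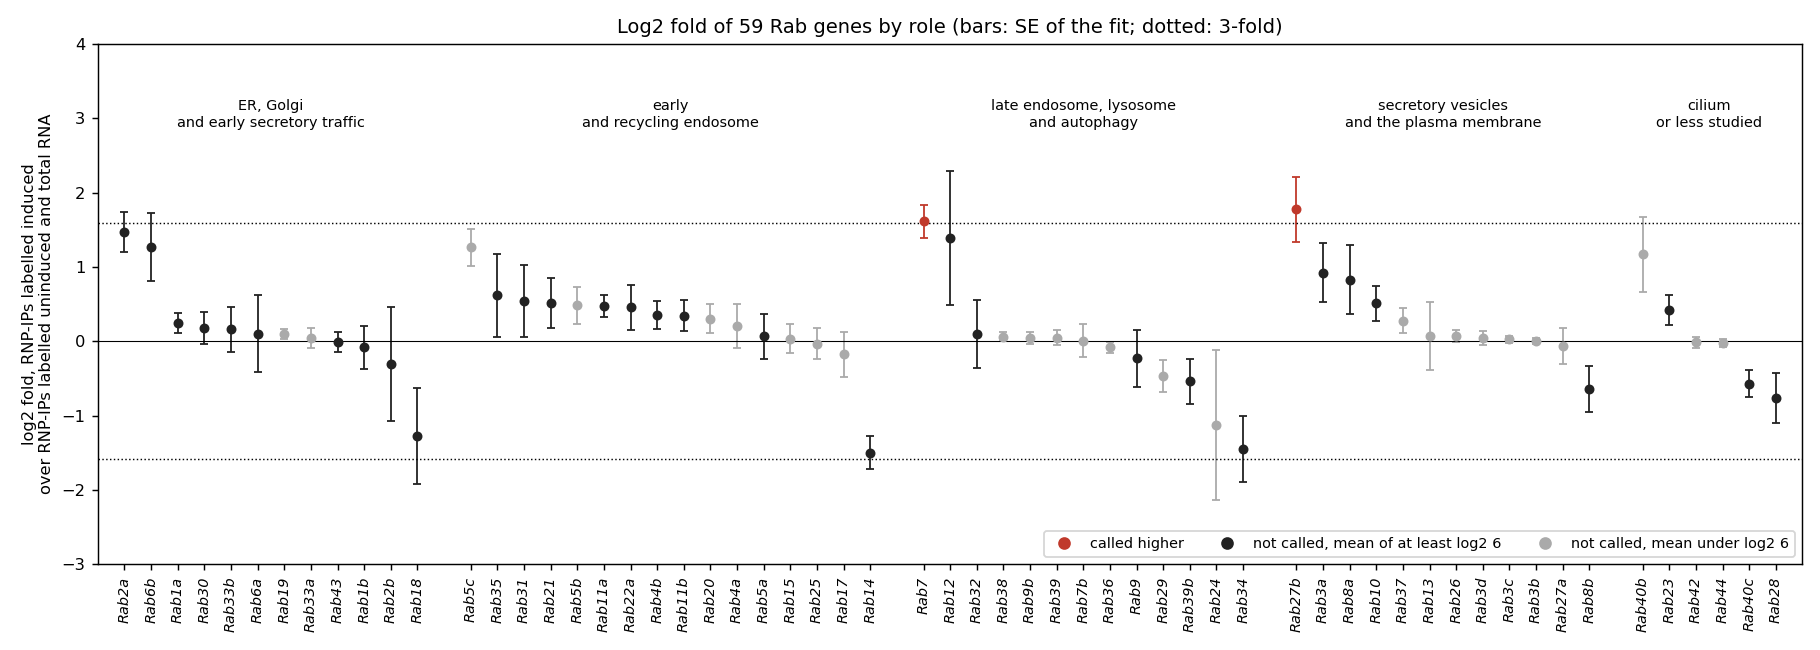
Log2 fold (vertical axis) of each of the 59 Rab genes in RNP-IPs labelled induced over RNP-IPs labelled uninduced and total RNA, grouped by role, with bars for the standard error of the limma fit and dotted lines at 3-fold. Rab7 and Rab27b (red) lie above the upper line, no gene lies below the lower one, and genes with a mean under log2 6 (grey) mostly lie near 0, and a point of a gene near background in 1 group only, such as Rab5c or Rab40b, is a lower bound on its fold.

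The ER and Golgi Rabs, which act early in secretion and in traffic back from the Golgi, comprised 12 genes, 10 of them with a mean of at least log2 6. None was called in this comparison, and their log2 folds ran from -1.27 to 1.47 with a median of 0.10. Rab2a, which acts between the Golgi and the ER, came closest on the upper side. Its signal was 11.61 and 11.48 in RNP-IPs labelled induced, 10.01 and 10.50 in RNP-IPs labelled uninduced and 9.72 in total RNA. The groups did not overlap, and the log2 fold of 1.47 (SE 0.26, 2.77-fold, limma adjusted p = 0.200) stayed just under the 3-fold limit. Without the second array labelled uninduced it passed, at 1.68, and without both arrays low at the Gapdh 5′ end it stood at 1.50 (limma adjusted p = 0.560).

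Rab6b, the Rab6 isoform enriched in neurons, gave 7.72 and 8.57 in RNP-IPs labelled induced, 7.00 and 6.26 in RNP-IPs labelled uninduced and 7.37 in total RNA. Both arrays labelled induced were above the rest, the lower of them by less than the spread among the other 3. The log2 fold was 1.26 (SE 0.46, 2.40-fold, limma adjusted p = 0.472), and of the arrays left out in turn only the first labelled induced brought a call, at 1.69. Without both arrays low at the Gapdh 5′ end it stood at 0.90 (limma adjusted p = 0.828). Rab6a, the broadly expressed isoform, overlapped between groups, with 8.36 and 9.67 against 9.43, 8.59 and 8.72, and a log2 fold of 0.10.

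Rab1a, which controls transport from the ER to the Golgi, was close to level. It gave 13.26 and 13.17 in RNP-IPs labelled induced, 13.08 and 13.07 in RNP-IPs labelled uninduced and 12.75 in total RNA. The order ran the same way in each pair of groups, yet the log2 fold was 0.25 (SE 0.13, limma adjusted p = 0.677). Rab30, a Golgi Rab, was not called either, with 6.66 and 7.13 against 6.91 and 6.76 in RNP-IPs labelled uninduced and 6.48 in total RNA, a log2 fold of 0.18.

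Rab18, found on the ER and on lipid droplets, stood apart in the RNP-IPs labelled uninduced rather than in those labelled induced. Its signal was 10.06 and 9.89 in RNP-IPs labelled induced, 11.36 and 12.18 in RNP-IPs labelled uninduced and 10.21 in total RNA. Total RNA was thus close to both arrays labelled induced, and only those labelled uninduced were high. Against RNP-IPs labelled uninduced and total RNA together the log2 fold was -1.27 (SE 0.64, limma adjusted p = 0.653) and was not called.

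The early and recycling endosome Rabs comprised 16 genes, 9 of them with a mean of at least log2 6. None was called, with a median log2 fold of 0.35, 13 above 0 and 3 below, the lowest at -1.50. Rab5a, which drives the fusion of early endosomes, read 10.93 and 10.91 in RNP-IPs labelled induced, 10.98 and 11.25 in RNP-IPs labelled uninduced and 10.35 in total RNA, and its log2 fold of 0.07 (SE 0.30) did not separate the groups. Rab5c, a close relative, had low signals, at 5.96 and 5.63 in RNP-IPs labelled induced, against 4.60 and 4.17 in RNP-IPs labelled uninduced and 4.83 in total RNA. With all 3 others near background it was at least 2.40-fold higher, without a call (limma adjusted p = 0.222). Rab11a, the main Rab of recycling endosomes, lay above on both arrays labelled induced, 9.99 and 10.27 against 9.63, 9.49 and 9.83, with a log2 fold of 0.48 (SE 0.15, limma adjusted p = 0.387) far under the limit. The other Rab11a probe set stood at -0.35.

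Rab14, which works between the Golgi and endosomes, had the lowest log2 fold of all 59 Rab genes. The chosen probe set gave 10.31 and 10.96 in RNP-IPs labelled induced, 12.25 and 12.10 in RNP-IPs labelled uninduced and 12.04 in total RNA. The groups did not overlap, and the log2 fold of -1.50 (SE 0.23, 2.82-fold lower, limma adjusted p = 0.158) stopped just short of 3-fold. It was called at -1.82 without the second array labelled induced, and at -1.76 without both arrays low at the Gapdh 5′ end. Rab22a, of early endosomes, gave the same value on 4 arrays, reading 9.41 and 8.50 in RNP-IPs labelled induced and 8.50 on the other 3. At least 2 arrays shared an identical value in 42.4% of the Rab probe sets, and in 55.1% of all probe sets.

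The late endosome, lysosome and autophagy Rabs comprised 13 genes, 6 of them with a mean of at least log2 6, and their median log2 fold was 0.01 over a range from -1.45 to 1.61. Rab7, the Rab that takes late endosomes and autophagosomes to lysosomes, was the called gene. It gave 12.42 and 12.10 in RNP-IPs labelled induced, 10.96 and 10.60 in RNP-IPs labelled uninduced and 10.39 in total RNA. The lower array labelled induced lay 1.14 above the highest of the others. The log2 fold was 1.61 (SE 0.22, 3.06-fold, limma adjusted p = 0.140), just inside the limit. It fell short without the first array labelled induced, at 1.45 (limma adjusted p = 0.351), and stood at 1.93 without both arrays low at the Gapdh 5′ end.

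Rab34, which positions lysosomes and acts in cilium formation, leaned the other way. It read 8.14 and 8.58 in RNP-IPs labelled induced, 9.53 and 9.37 in RNP-IPs labelled uninduced and 10.55 in total RNA, so that total RNA was highest and the arrays labelled induced lowest. Its log2 fold was -1.45 (SE 0.44, 2.74-fold lower, limma adjusted p = 0.382), and -1.67, a call, without the second array labelled induced. Without both arrays low at the Gapdh 5′ end it stood at -1.82 (limma adjusted p = 0.624). The remaining Rabs of this group included 2 with wide spread between arrays of a kind. Rab12, linked to the degradation of recycling receptors, read 8.44 and 6.80 in RNP-IPs labelled induced, 5.34 and 7.49 in RNP-IPs labelled uninduced and 5.86 in total RNA, and both arrays low at the Gapdh 5′ end were below their partners. Rab24, an autophagy-linked Rab, read 4.88 and 4.68, against 4.21 and 7.26 in RNP-IPs labelled uninduced and 6.23 in total RNA, and of the arrays left out in turn only the first labelled uninduced brought a lower call. Both arrays labelled induced were near background there, which gives at least 3.91-fold (limma adjusted p = 0.426).

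The secretory vesicle and plasma membrane Rabs comprised 12 genes, 5 of them with a mean of at least log2 6, and had a median log2 fold of 0.07 over a range from -0.65 to 1.77. Rab27b, which docks secretory granules and exosome-bearing endosomes at the plasma membrane, was the called gene and had the highest log2 fold of the family. It gave 6.53 and 7.68 in RNP-IPs labelled induced, 5.70 and 5.02 in RNP-IPs labelled uninduced and 5.29 in total RNA. The groups did not overlap, but the arrays labelled induced differed from each other by more than the lower of them did from the higher array labelled uninduced. The log2 fold was 1.77 (SE 0.44, 3.42-fold, limma adjusted p = 0.288). The call was lost without the second array labelled induced (1.20), without the second array labelled uninduced (1.61, limma adjusted p = 0.624) and without both arrays low at the Gapdh 5′ end (1.38).

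The synaptic vesicle Rab Rab3a had the next highest log2 fold of that group, 0.92 (SE 0.40, limma adjusted p = 0.575). It read 9.18 and 8.35 in RNP-IPs labelled induced, 8.26 and 7.89 in RNP-IPs labelled uninduced and 7.38 in total RNA, so the groups only just failed to overlap. The chosen Rab3a probe set has an _x_at design, and the other, with a mean under log2 6, stood at 0.75. Rab8b, of polarised membrane traffic, had the lowest, -0.65, while its paralog Rab8a stood at 0.83; neither was called. The last 6 genes, of the cilium or less studied, had a median log2 fold of -0.02, the lowest at -0.77 for Rab28, which is found at cilia. Rab40b, of the Rab40 group that joins ubiquitin ligases, was near background on all 3 arrays other than those labelled induced and stood at least 2.25-fold higher, without a call (limma adjusted p = 0.584). Rab23, an inhibitor of Hedgehog signalling, read 7.02 and 7.03 against 6.25 and 6.78 in RNP-IPs labelled uninduced and 6.78 in total RNA, a log2 fold of 0.42 that was not called.

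Several Rab genes had more than 1 probe set, 38 in all with up to 7 each, and these did not always move together. Over the 132 Rab probe sets, 5 were called higher (3.79%) and 1 lower (0.758%), against 1.16% and 1.66% of all probe sets. Of the 13 Rab genes with at least 2 probe sets at a mean of log2 6 or more, 6 had log2 folds of opposite sign among them and 5 spread over more than 1 on the log2 scale. Those of opposite sign were Rab14, Rab1a, Rab11a (-0.35 and 0.48), Rab11b (-0.21 and 0.34), Rab21 (-0.03 and 0.52) and Rab22a (-0.79 and 0.46). No gene had probe sets called both ways.

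Rab2a and Rab6b were called higher on probe sets other than the chosen ones. For Rab2a, 1418622_at read 11.71 and 11.49 in RNP-IPs labelled induced, 9.28 and 10.34 in RNP-IPs labelled uninduced and 9.22 in total RNA, a log2 fold of 1.98 (SE 0.42, 3.96-fold, limma adjusted p = 0.246). The other Rab2a probe sets with a mean of at least log2 6, 1418621_at and 1449676_at, stood at 0.79 and 0.19, and its 3 dim ones were not called. For Rab6b, 1460617_s_at read 7.91 and 8.05 in RNP-IPs labelled induced, 6.15 and 5.58 in RNP-IPs labelled uninduced and 6.00 in total RNA. The groups did not overlap, with a log2 fold of 2.07 (SE 0.20, 4.19-fold, limma adjusted p = 0.100). The dim Rab6b probe set 1437107_at was called as well, at least 3.16-fold higher (limma adjusted p = 0.0774), with 5.15 and 5.06 against values under log2 5 on the other 3 arrays. All 4 Rab6b probe sets had a positive log2 fold, the lowest 1.15.

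For Rab7 and Rab27b the calls rested on 1 probe set each. The second Rab7 probe set, 1448159_at, read 8.21 and 6.86 in RNP-IPs labelled induced, 7.06 and 7.08 in RNP-IPs labelled uninduced and 7.08 in total RNA, so that only the first array labelled induced was high (log2 fold 0.46, SE 0.44). The other 3 Rab27b probe sets, each with a mean under log2 6, were not called.

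Rab14, Rab1a and Rab30 were among the genes whose probe sets differed in sign. Against the -1.50 of its chosen probe set, an _s_at design that can match related transcripts, Rab14 stood at 1.34 on 1419243_at (SE 0.19, limma adjusted p = 0.148). That probe set read 8.93 and 8.75 in RNP-IPs labelled induced, 7.52 and 7.75 in RNP-IPs labelled uninduced and 7.22 in total RNA, which is the opposite order with no overlap. The other 5 Rab14 probe sets lay between -0.67 and 0.45. Rab1a stood at -1.33 (SE 0.42, limma adjusted p = 0.403) on 1448210_at, with 8.59 and 9.76 against 10.48 and 10.80 in RNP-IPs labelled uninduced and 10.24 in total RNA. Rab30 was called lower on the dim 1440325_at, at least 3.55-fold (limma adjusted p = 0.421), with 3.41 and 3.50 against 6.12 and 5.44 in RNP-IPs labelled uninduced and 4.29 in total RNA. Both Rab34 probe sets were alike, at -1.45 and -1.47.

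**Figure D3:**
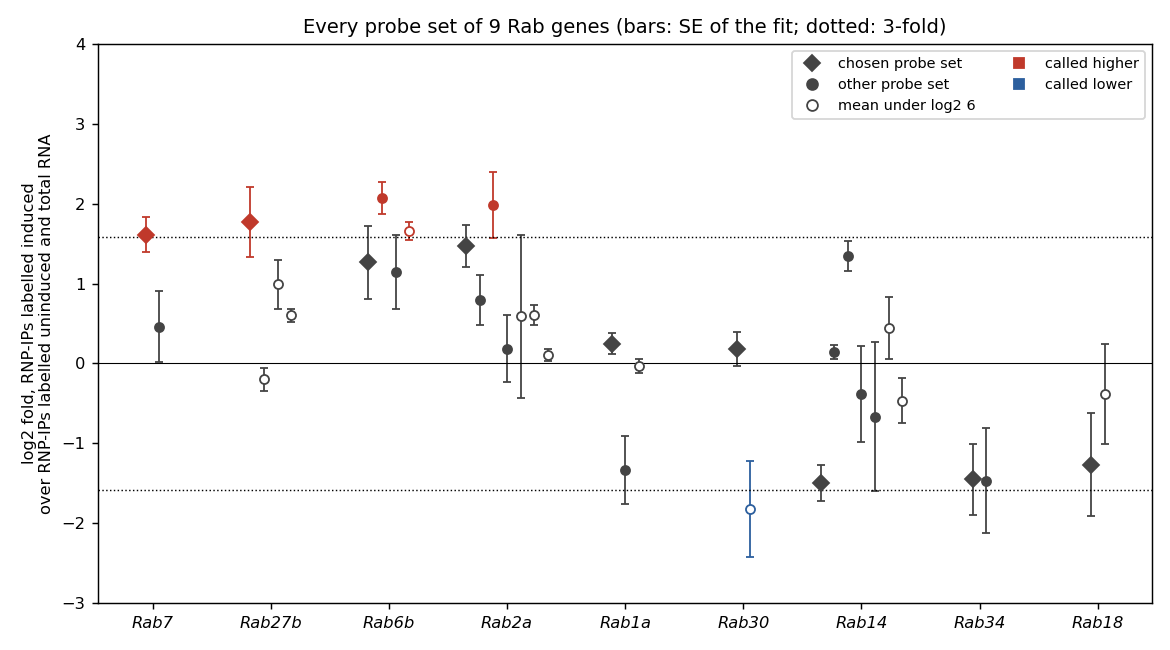
Log2 fold (vertical axis) of every probe set of 9 Rab genes in RNP-IPs labelled induced over RNP-IPs labelled uninduced and total RNA, with diamonds for the chosen probe set, circles for the others (open where the mean is under log2 6), standard errors of the limma fit as bars and dotted lines at 3-fold. All 4 probe sets of Rab6b lie above 0, while those of Rab14 run from -1.50 to 1.34.

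The comparison of precipitates alone left total RNA out of the contrast and shared the 4 RNP-IPs with the comparison above, so it is no independent test. Rab27b was called higher and Rab18 lower in RNP-IPs labelled induced against RNP-IPs labelled uninduced. These 2 calls, 1.69% of Rab genes in each direction, stood beside 1.38% of all genes called higher and 2.65% called lower. At an unadjusted limma p under 0.05 there were 10 Rab genes (16.9%), against 14.3% of all genes, and the median log2 fold was 0.05. Rab18 had a log2 fold of -1.79 (SE 0.35, 3.46-fold lower, limma adjusted p = 0.282). The Rab18 call was lost without either array labelled induced (-1.88, limma adjusted p = 0.529, without the first, and -1.71, limma adjusted p = 0.514, without the second) and without the second array labelled uninduced (-1.38).

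Rab27b stood at 1.75 in this contrast (3.37-fold, limma adjusted p = 0.450), and its call needed 3 of the 4 RNP-IPs. It was lost without the second array labelled induced (1.18), the first array labelled uninduced (2.09, limma adjusted p = 0.531) or the second (1.41). Rab7 stood at 1.48 (2.80-fold, limma adjusted p = 0.206), Rab2a at 1.29 and Rab6b at 1.51, each short of 3-fold. On the other side Rab14 stood at -1.54 (limma adjusted p = 0.259) and Rab34 at -1.08. The called second probe sets of Rab2a and Rab6b were called here too, at 1.79 and 2.11.

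The comparison of RNP-IPs labelled uninduced with total RNA rested on a single array of total RNA, assumed to vary like the RNP-IPs. No Rab gene was called in either direction, beside 1.26% of all genes called higher and 1.36% called lower. There were 9 Rab genes with an unadjusted limma p under 0.05 (15.3%, against 13.0% of all genes). Rab2b, the paralog of Rab2a, had the highest log2 fold at 1.63 (limma adjusted p = 0.606), with 9.39 and 8.69 in RNP-IPs labelled uninduced against 7.41 in total RNA. Rab18 followed at 1.56 (limma adjusted p = 0.422) and was called without the first array labelled uninduced, at 1.97, while Rab24 was called lower without the second, at least 4.05-fold, the 1 array left being near background. Rab32, a Rab of lysosome-related organelles and mitochondria, was the lowest at -1.22 (limma adjusted p = 0.167), with 7.20 and 7.10 in RNP-IPs labelled uninduced against 8.37 in total RNA. Rab31, of Golgi-to-endosome traffic, and Rab34 lay close by at -1.21 and -1.10. Rab7 and Rab27b, the called genes of the first comparison, were at 0.39 and 0.07.

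The proteins that run the Rab cycle were read from 4 lists, of which 163 of 170 genes were measured and 81 had a mean of at least log2 6. On every array 43 of the 163 stayed near background, as did 9100 of all 18195 genes, so shares of the 2 sets differ in brightness. Against RNP-IPs labelled uninduced and total RNA, 1 of these 163 was called higher (0.613%) and 9 lower (5.52%), beside 1.32% and 2.36% of all genes. At an unadjusted limma p under 0.05 there were 32 (19.6%), against 13.4% of all genes. The count of lower calls was 5 without the second array labelled uninduced and 8 without both arrays low at the Gapdh 5′ end, where the higher call was lost.

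Of 13 genes for prenylation, escort, GDP dissociation inhibition and the Yip membrane proteins, Yipf4 was higher and Yipf6 lower, both of them Golgi membrane proteins. Yipf4 read 11.42 and 11.53 in RNP-IPs labelled induced, 9.66 and 10.16 in RNP-IPs labelled uninduced and 9.15 in total RNA (3.52-fold, limma adjusted p = 0.204). Yipf4 is on the study's list of enriched mRNAs, drawn from these arrays, so its direction is no independent evidence. Its other probe sets stood at 0.18 and -0.52. Yipf6 read 7.27 and 7.38, against 10.60 and 10.66 in RNP-IPs labelled uninduced and 8.25 in total RNA, so the arrays labelled uninduced were high here as for Rab18 (5.70-fold lower, limma adjusted p = 0.460). A second Yipf6 probe set with a mean of at least log2 6 went the other way, at 0.58 (limma adjusted p = 0.683). Yipf6 was also the 1 listed gene called higher in RNP-IPs labelled uninduced over total RNA, at 2.37 on the log2 scale (limma adjusted p = 0.156).

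Of 48 exchange factors, Dennd5b, a DENN domain protein, was called lower. Its signals in RNP-IPs labelled induced were near background, 3.47 and 3.97, against 6.40 and 5.92 in RNP-IPs labelled uninduced and 5.68 in total RNA, which gives at least 4.86-fold (limma adjusted p = 0.129). The other Dennd5b probe sets were dim and stood at 0.41, -0.14 and -0.09, without a call. Of 38 GTPase-activating proteins, 3 with the TBC domain were lower. Tbc1d8b was 6.53-fold lower (limma adjusted p = 0.155), Usp6nl, which acts on Rab5, 5.47-fold (limma adjusted p = 0.105) and Evi5, which acts on Rab11, 3.93-fold (limma adjusted p = 0.278). Usp6nl read 5.44 and 5.12 in RNP-IPs labelled induced, 8.09 and 7.40 in RNP-IPs labelled uninduced and 7.70 in total RNA, while its other 2 probe sets stood at 0.18 and 0.27. The second Evi5 probe set stood at -1.49 and was not called (limma adjusted p = 0.503). A dim second probe set of Tbc1d8b stood at -0.007.

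Of 64 effectors, 4 were lower and none higher on their chosen probe sets. Exoc6, which the study lists as enriched, had a log2 fold of -0.997 on its chosen probe set, without a call. Other probe sets of listed genes without a call are not given here. Appl1, an endosomal adaptor that binds Rab5, read 3.72 and 4.38 in RNP-IPs labelled induced, 8.86 and 8.59 in RNP-IPs labelled uninduced and 8.94 in total RNA. Near background on both arrays labelled induced, it was at least 26.7-fold lower (limma adjusted p = 0.0670), and all 4 of its probe sets were called lower. Mical1, an actin-oxidising enzyme that binds Rabs of the Rab8 group, was 11.0-fold lower (limma adjusted p = 0.116) on its chosen probe set. The second Mical1 probe set was called lower as well, with a log2 fold of -2.17 (limma adjusted p = 0.180). Both arrays labelled induced were near background on that second probe set, so its fold is a lower bound. Rab11fip2 and Rab11fip5, adaptors between Rab11 and motor proteins, were 3.93-fold (limma adjusted p = 0.310) and 4.16-fold lower (limma adjusted p = 0.421). Rab11a and Rab11b themselves stood at 0.48 and 0.34 on the log2 scale without a call, and another probe set of each stood at -0.35 and -0.21. The chosen Rab11fip5 probe set has an _s_at design. It read 6.68 and 6.80 in RNP-IPs labelled induced, 8.19 and 8.20 in RNP-IPs labelled uninduced and 10.00 in total RNA. Against RNP-IPs labelled uninduced alone it was 2.74-fold lower, without a call. The other Rab11fip2 probe sets stood at 0.09 and -0.02, and the other Rab11fip5 probe set at -0.72. All of these were dim and not called.

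Between precipitates alone, none of the 163 was higher and 9 were lower (5.52%), beside 1.38% and 2.65% of all genes. Tbc1d5, a GTPase-activating protein for Rab7, was called here (-1.65, limma adjusted p = 0.136) and Rab11fip5 was not. In RNP-IPs labelled uninduced against total RNA, Lrrk2, Vps41, Rab11fip5, Dennd5a and Rab3gap2 were lower (3.07%, beside 1.36% of all genes). Lrrk2 is a kinase that phosphorylates Rabs, Vps41 a subunit of the HOPS tethering complex, and the others belong to the effector and exchange factor lists. These calls rested on the single array of total RNA. Lrrk2 was at least 3.45-fold lower, as both arrays labelled uninduced were near background (4.76 and 4.98). Vps41 was 3.34-fold, Rab11fip5 3.49-fold and Dennd5a 4.16-fold lower. Rab3gap2 was 3.14-fold lower, with 4.55 and 5.40 in RNP-IPs labelled uninduced.

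**Figure D4:**
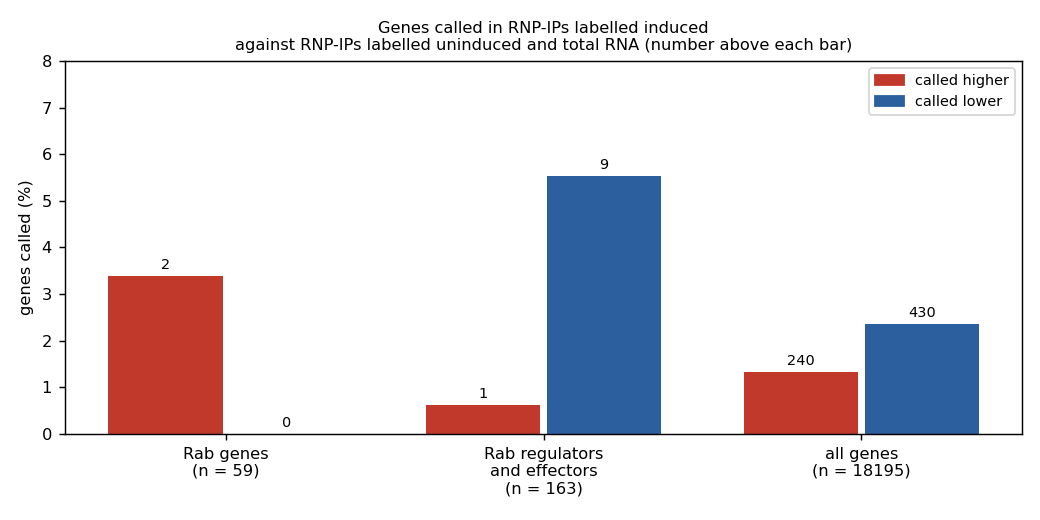
Share of genes (percent, vertical axis) called higher (red) and lower (blue) in RNP-IPs labelled induced against RNP-IPs labelled uninduced and total RNA, with the number of genes called above each bar. Rab genes have 2 of 59 called higher and none lower, and their regulators and effectors 1 of 163 higher and 9 lower.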

How the data were processed

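RNA from RNP-IPs and a total RNA control was labelled through a pair of amplification cycles and hybridised to Affymetrix mouse GeneChips. The authors deposited log2 signals, normalised across the 5 arrays by robust multiarray average (RMA). Scanner files were not used here. Probe sets took genes from the platform annotation of 2016. Of 45101 probe sets, 34958 had 1 gene, 932 several and 9211 none, and the 59 Entrez IDs of the Rab genes all matched the RefSeq table.

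All probe sets entered limma 3.58.1 (lmFit, eBayes) in R 4.3.3, with Benjamini-Hochberg adjustment over all of them, in 3 comparisons. RNP-IPs labelled induced were set against the 3 other arrays as 1 group. The contrasts between RNP-IPs and of RNP-IPs labelled uninduced with total RNA came from a 3-group fit. Genes were called at 3-fold or more with an adjusted p below 0.5. Where every array of a group was under log2 5, a fold is given as "at least". The fits were tested on simulated data. Named Rab genes were those called, 4 Rab genes on the study's list of enriched mRNAs (Rab2a, Rab6b, Rab7, Rab27b), the 6 with the highest mean, those with another probe set called and those next to the fold limit. Rab3a, Rab5c, Rab12, Rab24 and other Rab genes with values were chosen after their values were seen. Members, gene lists and tests were chosen with earlier results of these data known. Appl1 and Mical1 were known to be among the lowest genes. The 4 Rab genes on the study's list were chosen there on these arrays, so their direction here is no independent evidence. The study calls its induced RNP-IPs independent, and separate cultures are not named in the sources used here, so p-values measure the spread between these arrays, and the number of arrays limits the precision. Alternatives covered normalisation, dim probe sets, the call rule, the probe set per gene, the spread estimate, arrays left out and the replicate number as a block.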

Additional observations from a re-analysis of the deposited data

How the results depend on the processing

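With 2 arrays per RNP-IP group, most calls rested on single arrays and on the chosen probe set. Cyclic loess, median centring, an intensity trend and leaving out _x_at and _s_at probe sets kept every count of called Rab genes. The median log2 fold of the family, 0.07 in the first comparison and 0.05 between RNP-IPs, was 0.25 and 0.28 over probe sets with a mean of at least log2 6. Rab27b, Rab8a and Rab4b passed that filter only through the arrays labelled induced. Against RNP-IPs labelled uninduced and total RNA, the 2 higher and 0 lower calls became 0 higher at a limma adjusted p under 0.05, 5 higher and 2 lower at 2-fold, 4 higher and 1 lower with the probe set of largest fold, and 1 higher and 1 lower without both arrays low at the Gapdh 5′ end. With 1 RNP-IP left out they ranged from 1 to 2 higher and 0 to 2 lower, the lowest higher count without the second array labelled induced. Between RNP-IPs, 1 higher and 1 lower became 0 and 0 at a limma adjusted p under 0.05, 5 and 3 at 2-fold, 3 and 2 with the probe set of largest fold, and 0 to 3 and 0 to 2 with 1 RNP-IP left out. For RNP-IPs labelled uninduced against total RNA, 0 and 0 became 1 higher among probe sets with a mean of at least log2 6 (Rab2b), 2 higher and 3 lower at 2-fold, 1 higher with the probe set of largest fold, and 0 to 1 in each direction with 1 RNP-IP left out. The cause of these changes was not tested. Direction reversed for Rab1a (-1.33) and Rab30 (-1.83) with the probe set of largest fold, and for Rab14 (0.14) without _x_at and _s_at probe sets. Rab2a, whose chosen probe set is an _s_at design too, stood at 0.79 without them (limma adjusted p = 0.526). A Rab6b probe set called higher also has the _s_at design. With 1 RNP-IP left out, Rab30 ranged from -0.058 to 0.41, below 0 only without the second array labelled induced. With the replicate number as a block, the RNP-IP contrast called 0 higher and 0 lower Rab genes, in a fit with 1 residual degree of freedom. Deviations of same-numbered RNP-IPs correlated at -0.50 over all probe sets. The arrays low at the Gapdh 5′ end carry different replicate numbers, so this value cannot settle whether same-numbered RNP-IPs were prepared together. The crossed pairing, chosen after seeing the data, called 1 higher and 1 lower. Without both arrays low at the Gapdh 5′ end, contrasts of the 3-group fit had no residual degrees of freedom and were not run. Scanner intensities were not used, so signal over local background is unknown, and a change in the 15 Rab genes near background on every array was not detectable.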
